A study of Homo sapiens with 60 samples.

Results

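The 8 proapoptotic BH3-only genes BCL2L11 (BIM), BBC3 (PUMA), BID, BMF, HRK, BIK, BAD and PMAIP1 (NOXA) were followed by bulk RNA-seq through osimertinib treatment and drug removal. They were taken by name from the 19712 genes of the deposited tables, and all 8 were in both the count table and the TPM table. The samples were 4 EGFR-mutant lung adenocarcinoma cell lines, PC9, HCC827, H1975 and HCC2935, treated with osimertinib, a kinase inhibitor of mutant EGFR. Each line had 5 arms of 3 biological replicates, which gave 60 libraries in 20 groups. The DMSO arm held parental cells kept drug-free for 21 days and then given vehicle for 24 h. The acute arm held parental cells kept drug-free for the same 21 days and then given 500 nM osimertinib for 24 h. The DTP arm held cells harvested after 21 days at 500 nM, termed osimertinib DTPs in the labels. The short washout arm held DTP cells returned to drug-free medium for 24 h. The long washout arm held DTP cells kept drug-free until growth had resumed, which the labels give as 7 days in PC9, 4 days in HCC827, 3 days in H1975 and 10 days in HCC2935. All comparisons were within a line grown as a monolayer, the arms after 21 days in drug were compared with parental cells that had not been selected by drug, and the length of the long washout differed among lines. The design addresses which genes respond to the drug at once, which stay changed in cells that survive it, and which return when it is removed.

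BH3-only proteins are the stress sensors of the mitochondrial death pathway, and each carries the short BH3 helix that fits into a groove on the prosurvival BCL2 proteins. BIM, PUMA and BID can also engage the pore-forming effectors BAX and BAK directly and are called activators, whereas BMF, HRK, BIK, BAD and NOXA mainly occupy prosurvival proteins and are called sensitisers. In EGFR-mutant lung cancer cells BIM is known for its restraint by ERK signalling, which marks the protein for destruction, and PUMA for its control by FOXO factors.

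Sequencing depth was 17.7 M to 49.1 M counts per library, deeper in PC9 and H1975 (medians of 40.2 M and 42.9 M) than in HCC827 and HCC2935 (19.7 M and 21.6 M). The drug response was plain in each line: 19 of 24 gene-by-line tests of ERK output genes were called lower after acute osimertinib, including DUSP6 and SPRY4 in all 4 lines, and so were 16 of 16 tests of the cell cycle genes MKI67, TOP2A, CDK1 and CCNB1. Keratins KRT8, KRT18 and KRT19 stood at 353 CPM or more in every library, and the T-cell marker CD3E reached at most 0.210 CPM. Other markers that cultured carcinoma lines should lack were not all near 0, with PTPRC up to 4.43 CPM in H1975, PECAM1 up to 31.5 CPM in PC9, CDH5 up to 44.5 CPM in HCC2935 and VWF up to 5.22 CPM. Of 12 gene-by-line tests of PECAM1, CDH5 and VWF, 6 were called higher and 1 lower after acute osimertinib, and 2 higher and 1 lower in DTPs. Their summed level lay at 25.0 to 45.1 CPM in DMSO and 26.2 to 33.0 CPM after acute treatment in PC9, and at 1.00 to 1.96 and 2.96 to 3.81 CPM in HCC827. It lay at 2.26 to 5.66 and 6.92 to 11.7 CPM in H1975 and at 29.3 to 34.4 and 40.3 to 48.5 CPM in HCC2935. The part of these markers in the rise of members was not tested. The epithelial genes CDH1 and EPCAM went in H1975 from means of 254 and 191 CPM in DMSO to 7.37 and 20.2 CPM in DTPs, and in HCC827 from 1053 and 451 CPM to 296 and 124 CPM. In bulk RNA, a smaller share of cells of a kind and less RNA per cell cannot be told apart. The washout libraries did not always follow their labels. In H1975, MKI67 averaged 219 CPM in DTPs, 369 CPM (309 to 440) in the libraries labelled short washout and 176 CPM (147 to 221) in those labelled long washout, and in HCC827 it averaged 175 CPM in DTPs and 174 CPM after the long washout. Results from these arms are therefore given for the libraries as labelled and by line, and counts over the lines are also given without H1975. Whether the labels of the 2 H1975 washout arms were exchanged was not tested, so the H1975 washout values carry that doubt. In PC9, long washout replicate 3 stood apart from the other two for BMF, HRK and BIM, and leaving it out ended no call of a member.

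By GENCODE 29 on GRCh38, the genes lie at chr2:111119378-111168447 (BCL2L11, plus strand), chr19:47220822-47232766 (BBC3, minus), chr22:17734138-17774770 (BID, minus), chr15:40087890-40108892 (BMF, minus), chr12:116856144-116881441 (HRK, minus), chr22:43110748-43129712 (BIK, plus), chr11:64269830-64284704 (BAD, minus) and chr18:59899948-59904306 (PMAIP1, plus). Several share exon bases with a gene on the opposite strand, 404 with GPR137 for BAD, 727 with MIR4435-2HG for BCL2L11 and 461 with BMF-AS1 for BMF. BBC3 shares 80 with MIR3190 on the opposite strand and 76 with MIR3191 on its own strand. The sources used here do not say whether counting used strand, so reads in those bases could come from either gene. PMAIP1, BIK, HRK and BID share no exon bases with another annotated gene. RefSeq promoters on GRCh38.p14 were matched for 7 of the 8 genes. The 250 bases before an annotated start are printed for BCL2L11, BMF, BBC3 and HRK, the members that rose after acute osimertinib in at least 2 lines and had no second protein-coding gene over their exons. Capitals mark motif letters found on either strand, which were GTAAACA (a FOXO motif), TGANTCA (AP-1), CACGTG (E-box) and GGGCGG (GC box). No marked letters of different motifs overlap.
BCL2L11: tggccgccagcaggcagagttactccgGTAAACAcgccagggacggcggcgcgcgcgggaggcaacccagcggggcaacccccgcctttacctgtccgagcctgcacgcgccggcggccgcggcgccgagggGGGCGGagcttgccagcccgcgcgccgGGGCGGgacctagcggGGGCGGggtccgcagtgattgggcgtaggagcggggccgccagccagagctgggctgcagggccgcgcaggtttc
BMF: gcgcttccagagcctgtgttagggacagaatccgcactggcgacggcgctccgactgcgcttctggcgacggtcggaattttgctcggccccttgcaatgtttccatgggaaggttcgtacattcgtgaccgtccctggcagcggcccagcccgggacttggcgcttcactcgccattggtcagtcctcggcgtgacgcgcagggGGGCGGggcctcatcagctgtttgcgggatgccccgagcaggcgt
BBC3: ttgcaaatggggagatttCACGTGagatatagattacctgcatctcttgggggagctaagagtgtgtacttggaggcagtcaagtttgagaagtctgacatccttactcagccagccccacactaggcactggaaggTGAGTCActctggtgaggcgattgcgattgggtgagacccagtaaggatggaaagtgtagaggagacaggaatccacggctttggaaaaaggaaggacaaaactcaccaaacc
HRK: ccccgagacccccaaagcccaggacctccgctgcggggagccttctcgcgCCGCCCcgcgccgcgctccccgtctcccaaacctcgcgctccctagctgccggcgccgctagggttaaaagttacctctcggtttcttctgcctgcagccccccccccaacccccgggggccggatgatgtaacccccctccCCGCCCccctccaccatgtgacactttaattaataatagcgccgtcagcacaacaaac
These windows lie at chr2:111120664-111120913 (plus strand), chr15:40108880-40109129 (minus), chr19:47232668-47232917 (minus) and chr12:116881442-116881691 (minus). The FOXO letters occurred in the BCL2L11 window alone among the members, 223 bases before its start, and in 2.98% of the 35116 promoter windows of that length. The BBC3 window held the AP-1 letters 113 bases and an E-box 232 bases before its start, motifs found in 6.57% and 6.34% of all windows. GC boxes, found in 42.6% of windows, occurred in the printed windows of BCL2L11, BMF and HRK and not in that of BBC3. BMF has a second annotated start, whose window (chr15:40106967-40107216, minus) is not printed. It held none of the marked motifs and was 48.8% GC. The BBC3 window was also the least GC-rich of the printed windows, at 49.2% against 76.8% for BCL2L11, 65.2% for BMF, 66.4% for HRK and a median of 58% over all windows. A match of letters describes the sequence and does not show that a factor binds there.

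In untreated cells the lines started from different levels, given here as TPM (transcripts scaled to a common total and to their length, mean ± SD, n = 3). The deposited genes of the DMSO libraries summed to 0.821 M to 0.889 M TPM, and the levels were not rescaled for this. BAD was by mean the most abundant member in PC9 and HCC2935, at 67.6 ± 4.25 and 74.5 ± 8.57 TPM. BID came next in PC9, at 52.5 ± 4.94 TPM. In HCC2935 the next mean was that of BMF, at 56.7 ± 26.5 TPM, before BID at 53.2 ± 7.19 TPM. NOXA led instead in HCC827 and H1975 at 42.0 ± 5.67 and 41.7 ± 1.76 TPM. HRK was the least abundant member in every line, from 1.12 ± 0.253 TPM in PC9 and 0.824 ± 0.389 TPM in H1975 to 0.131 ± 0.0790 TPM in HCC827 and 0 in the 3 HCC2935 libraries. Untreated BMF was ordered HCC2935 (56.7 ± 26.5 TPM), HCC827 (19.3 ± 11.6), PC9 (3.55 ± 1.195) and H1975 (2.81 ± 0.607), and PC9 and H1975 overlapped. For PUMA the order was HCC2935 (23.4 ± 2.79), HCC827 (4.14 ± 1.19), H1975 (2.80 ± 0.727) and PC9 (2.13 ± 0.595), and only HCC2935 was clear of its neighbour. HCC2935 thus held the highest untreated level of both genes, above every library of the other lines. For BIM the order was HCC827 (18.8 ± 2.08), H1975 (12.1 ± 1.60), HCC2935 (10.4 ± 1.13) and PC9 (8.19 ± 0.739), with overlap between H1975 and HCC2935. BIK ran from 25.0 ± 5.69 TPM in HCC827 through 9.60 ± 2.102 in HCC2935 and 6.62 ± 0.357 in PC9 to 3.21 ± 1.81 in H1975, with no overlap between neighbours. NOXA was low in PC9 (6.15 ± 0.829 TPM) and overlapped among the other lines, where HCC2935 stood at 36.5 ± 8.10 TPM. BID and BAD were lower in H1975 (24.8 ± 2.49 and 38.3 ± 7.42) and HCC827 (7.86 ± 0.923 and 34.1 ± 4.71) than in PC9 and HCC2935. Over all 60 libraries BMF ran from 1.84 to 368 TPM and BAD from 31.2 to 107 TPM.

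**Figure D1:**
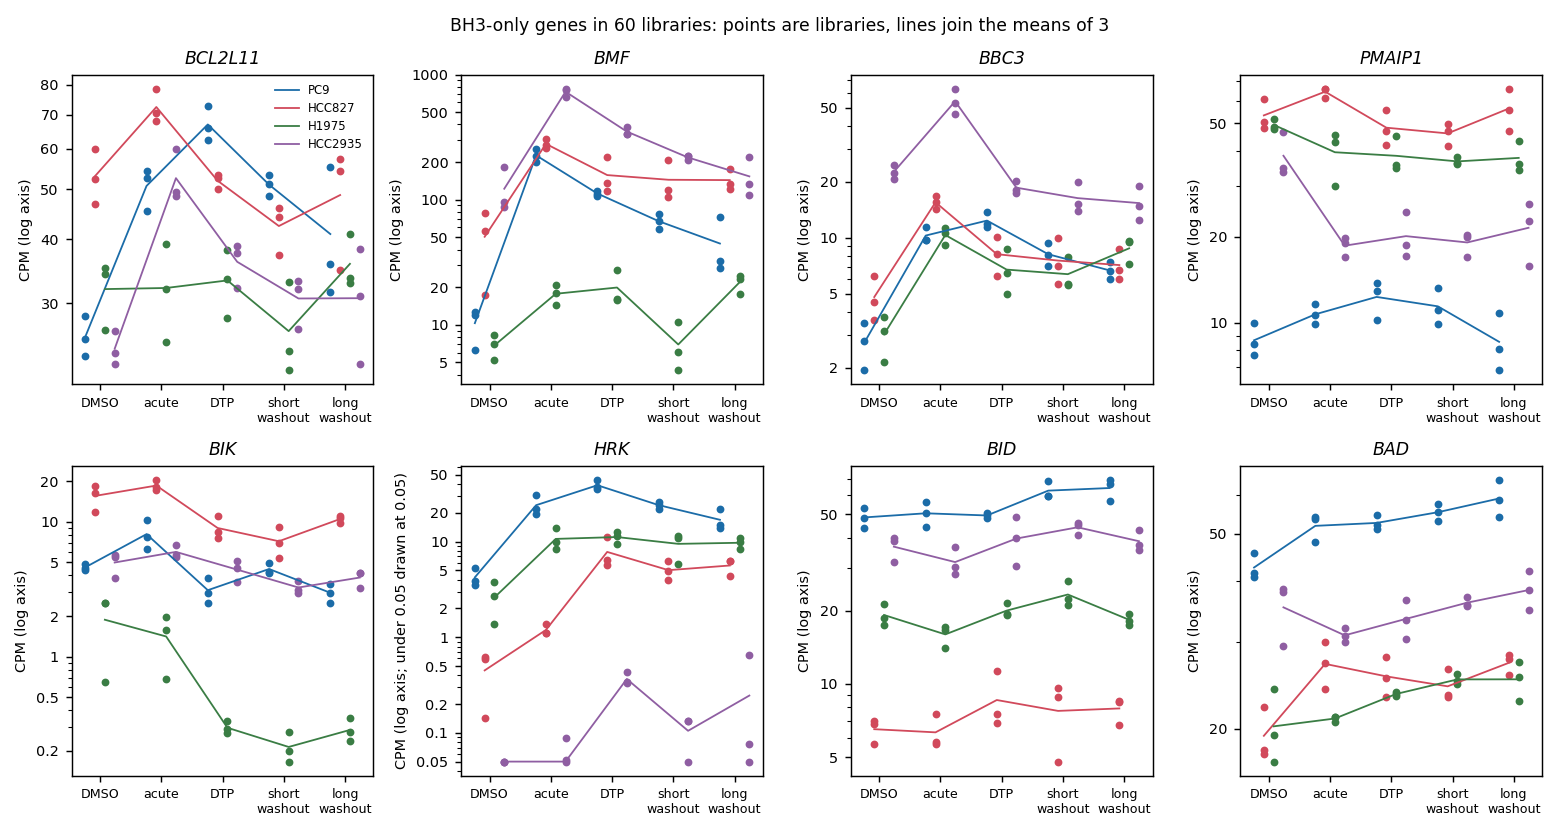
Level of each BH3-only gene in every library, as normalised CPM on a log axis (values under 0.05 are drawn at 0.05), by arm (x axis) and line (colour); points are libraries and lines join the means of 3. BMF spans from 4.33 CPM in an H1975 short washout library to 772.9 CPM in HCC2935 after acute osimertinib, while BAD runs from 17.1 to 64.5 CPM over all libraries.

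From here on, levels within a line are normalised CPM (counts scaled to a common library total, not to length), and differences are log2 fold changes ± standard error from edgeR's quasi-likelihood test fitted to the 15 libraries of that line. The standard error is an approximation, the absolute log2 fold change divided by the square root of the F statistic of that test. Adjusted p denotes the Benjamini-Hochberg value over all genes tested in that line and comparison, and a gene is called where it is under 0.05. Of 32 gene-by-line pairs 31 passed the low-count filter, HRK in HCC2935 being the exception, so counts are out of 31.

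Acute osimertinib raised BMF and PUMA in all 4 lines and HRK in the 3 lines where it was tested, raised BIM in PC9 and HCC2935 and BAD in PC9 and HCC827, raised BIK in PC9, and lowered NOXA in HCC2935. BMF had the largest rise, 21.6-fold in PC9, where it ranked 145 of 14866 genes by log2 fold change. In all, 17 of 31 tests were called, 16 higher and 1 lower. By line, 6 of 8 members were called in PC9, all higher, where 66.2% of all genes were called (34.5% higher, 31.7% lower). In HCC827 4 of 8 were called, all higher, against 39% of all genes (18.7% higher, 20.2% lower). In H1975 3 of 8 were called, all higher, against 51.6% (27.8% higher, 23.8% lower). In HCC2935 3 of 7 were higher and 1 lower, against 47.1% (24.9% higher, 22.2% lower). The share of members called lay near these backgrounds in every line, and the calls were mostly in the upward direction. The median log2 fold change of the members against that of all genes was 0.87 and 0.069 in PC9, 0.44 and 0.024 in HCC827, 0.016 and 0.099 in H1975, and 0.28 and 0.067 in HCC2935.

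DTPs kept much of this response and lost part of it. Against DMSO, BMF stayed higher in 4 lines and HRK in 3, and PUMA stayed higher in PC9, HCC827 and H1975 but not in HCC2935. BIK, whose acute rise was called in PC9 only, was lower in PC9, HCC827 and H1975. The calls were 20 of 31, 15 higher and 5 lower. PC9 had 7 of 8 members called (6 higher) against 69.2% of all genes (35.7% higher, 33.5% lower), and HCC827 5 of 8 (4 higher) against 43.4% (23% higher, 20.4% lower). H1975 had 5 of 8 called (3 higher) against 51.7% (26% higher, 25.7% lower), and HCC2935 3 of 7 (2 higher) against 52.8% (27% higher, 25.8% lower). Compared directly with acute treatment, DTPs differed for 11 of 31 tests, 9 of them lower, and the 2 that were higher were both HRK, in HCC827 and PC9. Those calls were 3 of 8 in PC9 (1 higher) against 33.9% of all genes (16.1% higher, 17.8% lower) and 3 of 8 in HCC827 (1 higher) against 29.4% (18% higher, 11.5% lower). They were 2 of 8 in H1975, both lower, against 37.2% (18.3% higher, 18.9% lower), and 3 of 7 in HCC2935, all lower, against 44.7% (22.8% higher, 21.9% lower). Here too the share of members called was near the background. The comparisons with DMSO share their control libraries and are given side by side.

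**Figure D2:**
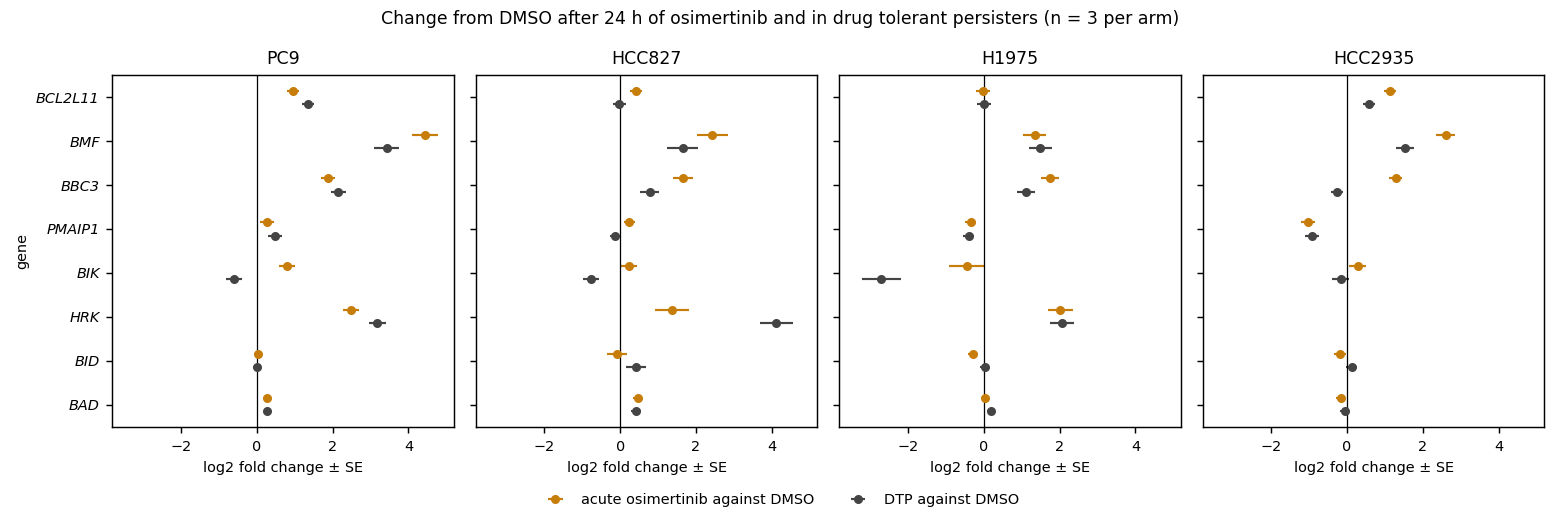
Log2 fold change against DMSO (x axis) of each BH3-only gene, 1 panel per line, after acute osimertinib (orange) and in DTPs (grey), with bars for the standard error; both comparisons share the DMSO libraries, and HRK was not tested in HCC2935. HRK in HCC827 has its DTP point far to the right of its acute point (1.37 acute, 4.11 DTP), and BIK in H1975 far to the left (-0.43 and -2.69).

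After a day without drug no member was called by the edgeR fit of each line described above, and 1 to 6 were called under 6 other settings, other edgeR fits among them. In the short washout against DTPs that fit called 0 of 31 tests, and leaving out H1975 did not change this. An unadjusted p under 0.05 was found for 8 of the 31, and DESeq2 called 4. With the replicate block 1 was called, BMF in H1975. With only the 6 libraries of both arms, BMF, HRK, BIM and PUMA were called lower and BID higher in PC9, and BMF lower in HCC2935. The calls by DESeq2 were PUMA and HRK lower and BID higher in PC9, and BMF lower in H1975. For the edgeR fit of each line described above, the background was 5.92% of genes in PC9, 0% in HCC827, 0.0585% in H1975 and 3.14% in HCC2935. The share of all genes was not counted for the other settings or for an unadjusted p under 0.05. By the same fit 24 of the 31 log2 fold changes were below 0, with a median of -0.14 and a range from -1.49 to 0.53. Values of a line share its DTP libraries, and the share of all genes below 0 was not counted. The median of the members against that of all genes was -0.244 and -0.0076 in PC9 and -0.131 and 0.0039 in HCC827. It was -0.138 and -0.00995 in H1975 and -0.182 and -0.0091 in HCC2935. After the long washout 7 of 31 tests were called against DTPs, none of them in H1975. PC9 had 6 of 8, of which BIM, BMF, PUMA, NOXA and HRK fell and BID rose, against 37.2% of all genes called and 16.8% called lower. HCC2935 had 1 of 7, the fall of BMF, against 11.8% called and 4.94% called lower. No member was called in HCC827 or H1975, where the background was 0% and 0.0065%, the latter being 1 gene. Against DMSO, 19 of 31 tests were called after the long washout, 13 higher and 6 lower, or 13 without the H1975 libraries. BID in PC9, PUMA in HCC2935 and BAD in H1975 were among them and had not been called in DTPs against DMSO. PC9 had 7 of 8 (6 higher) against 44.9% of genes (23.4% higher, 21.5% lower), and HCC827 4 of 8 (3 higher) against 42% (21.9% higher, 20% lower). H1975 had 6 of 8 (4 higher) against 53.3% (27.3% higher, 26% lower), and HCC2935 2 of 7, both lower, against 43.3% (22.5% higher, 20.8% lower). The called falls from the DTP level thus lay in PC9 and, for BMF alone, in HCC2935, the lines with the longest washouts. Line and washout length cannot be told apart there, and hardly any gene was called in HCC827 or H1975.

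**Figure D3:**
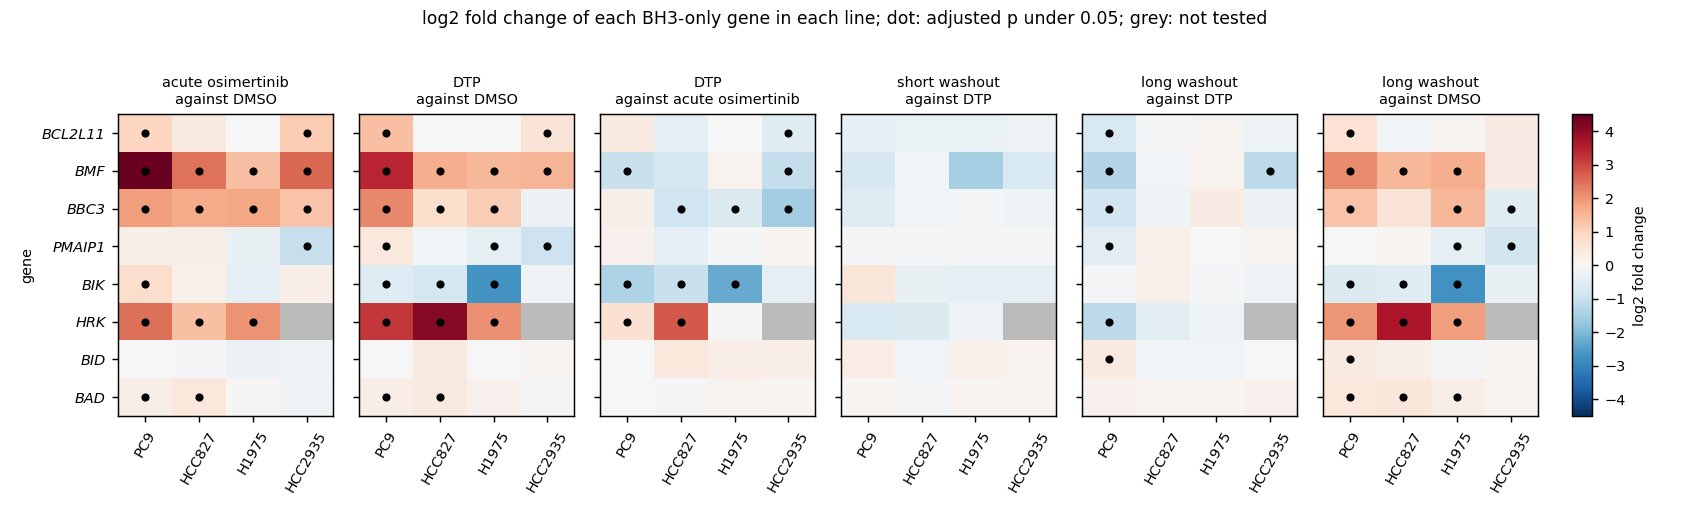
Log2 fold change of each BH3-only gene (rows) in each line (columns) and comparison (panels), from edgeR fits to the 15 libraries of a line; red is higher, blue lower and grey not tested, and cells with a dot passed the threshold of 0.05 on the adjusted p. The acute panel is above 0 for BMF, PUMA and HRK in every line tested, and the short washout panel holds no dot.

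The response to the drug differed among the lines for several members. A test of any difference among the 4 lines, in a fit of all 60 libraries, called 4 of 8 members for acute osimertinib (BIM, BMF, NOXA and BAD), where 41.4% of all genes were called. It called 7 of 8 for DTPs against DMSO, all but BID, against 63.9% of genes, and 4 of 8 for DTPs against acute treatment (BIM, PUMA, HRK and BIK) against 54.3%. No member was called for the short washout (background 0.0121%), where 2 genes in all were. PUMA alone was called for the long washout against DTPs (15.2%), and 6 of 8 were called for the long washout against DMSO (57.1%), or 5 without the H1975 libraries. Without H1975 no member differed among the other lines in the long washout against DTPs. The shares for DTPs and for the long washout, each against DMSO, lay above those of all genes. The others were near those of all genes or below them. With 8 members a share moves in large steps, and its distance from the background was not tested.

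BIM (BCL2L11), an activator that binds every prosurvival family member, was measured in PC9 at 23.6, 25.5 and 28.3 CPM in the 3 DMSO libraries, 45.3, 52.7 and 54.4 after acute osimertinib and 65.9, 62.3 and 72.7 in DTPs. The 3 groups did not overlap, and the log2 fold change against DMSO was 0.95 ± 0.16 (adjusted p = 1.21e-04) after acute treatment and 1.36 ± 0.16 (adjusted p = 5.26e-06) in DTPs. In HCC2935 it went from 23.98, 22.8 and 26.5 CPM to 49.3, 48.5 and 59.97 CPM after acute treatment, a rise of 1.13 ± 0.16 (adjusted p = 3.36e-05), and then stood at 37.5, 32.04 and 38.8 CPM in DTPs. That was above DMSO (0.58 ± 0.16, adjusted p = 0.00644) and below acute treatment (-0.55 ± 0.16, adjusted p = 0.00962). In H1975 BIM was not called at any step, with 34.2, 26.6 and 35.1 CPM in DMSO, 25.2, 31.9 and 39.2 after acute treatment and 33.5, 28.1 and 38.1 in DTPs, and a log2 fold change of -0.0086 ± 0.19 after acute treatment. In HCC827 acute treatment gave 68.01, 70.6 and 78.7 CPM against 52.5, 46.9 and 59.95 in DMSO, groups that did not overlap but whose difference of 0.42 ± 0.16 missed the threshold at an adjusted p of 0.0504. It passed without DMSO replicate 3 (adjusted p = 0.0284) and under 9 of the 10 other settings. DTPs of HCC827 held 53.2, 52.7 and 50.1 CPM. The acute response of BIM differed among the lines (adjusted p = 0.00106), as did the DTP response (adjusted p = 1.48e-05). Drug removal in PC9 left BIM at 53.4, 48.6 and 51.3 CPM after the short washout and at 31.6, 35.8 and 55.4 CPM after the long one. The latter was lower than in DTPs, with a log2 fold change of -0.69 ± 0.16 (adjusted p = 0.00513), and still above DMSO by 0.66 ± 0.16 (adjusted p = 0.00463). Replicate 3 was the highest of those long washout libraries of PC9. The fall to the long washout in PC9 lost its call with only the 6 libraries of both arms (adjusted p = 0.0559). DTPs were called above acute treatment in PC9 under 7 other settings, the replicate block among them (adjusted p 0.00777 to 0.0456), and below it in HCC827 under 8 (adjusted p 0.00788 to 0.0434). The fall from acute treatment to DTPs in HCC2935 lost its call without acute replicate 3 (adjusted p = 0.0528) and in the limma fits to TPM (adjusted p 0.127 to 0.131). The long washout of HCC2935 was called above DMSO without its replicate 3 (adjusted p = 0.00998).

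PUMA (BBC3), an activator of the same kind, rose after acute osimertinib in each of the 4 lines. The libraries of PC9 went from 1.94, 2.798 and 3.47 CPM in DMSO to 9.77, 11.4 and 9.697 CPM, and those of HCC827 from 6.25, 3.63 and 4.51 to 15.5, 14.2 and 16.8 CPM. Those of H1975 went from 3.76, 2.15 and 3.17 to 9.09, 11.3 and 10.6 CPM and those of HCC2935 from 20.7, 22.4 and 24.6 to 63.3, 46.3 and 52.7 CPM. Treated and untreated groups did not overlap in any line. The log2 fold changes were 1.88 ± 0.19 (adjusted p = 9.19e-07) in PC9, 1.66 ± 0.26 (adjusted p = 1.85e-04) in HCC827, 1.75 ± 0.25 (adjusted p = 4.42e-05) in H1975 and 1.28 ± 0.17 (adjusted p = 1.30e-05) in HCC2935. The test of a difference among the lines was not called for this acute response (adjusted p = 0.305), whereas the DTP response differed among them (adjusted p = 1.58e-07). DTPs of PC9 held 11.8, 11.5 and 13.8 CPM, 2.15 ± 0.19 (adjusted p = 4.51e-07) above DMSO. Those of HCC827 held 10.1, 8.203 and 6.202 CPM (0.78 ± 0.26, adjusted p = 0.02497) and those of H1975 6.49, 4.99 and 8.74 CPM (1.11 ± 0.25, adjusted p = 0.001599). In HCC2935 DTPs it was at 18.1, 20.3 and 17.4 CPM, below every DMSO library, with a difference of -0.27 ± 0.17 that was not called (adjusted p = 0.188). The direct comparison of DTPs with acute treatment gave log2 fold changes of -1.55 ± 0.17 (adjusted p = 2.26e-06) in HCC2935, -0.88 ± 0.25 (adjusted p = 0.0173) in HCC827 and -0.64 ± 0.24 (adjusted p = 0.04802) in H1975. The value in PC9, 0.27 ± 0.18 (adjusted p = 0.261), was not called. After the long washout PUMA stood at 6.64, 6.004 and 7.38 CPM in PC9, below DTPs (-0.87 ± 0.18, adjusted p = 0.00277) and above DMSO (1.28 ± 0.19, adjusted p = 1.37e-04). It was at 9.64, 7.24 and 9.43 CPM in H1975, above DMSO (1.499 ± 0.25, adjusted p = 1.49e-04), and at 14.8, 18.9 and 12.4 CPM in HCC2935, below DMSO (-0.53 ± 0.17, adjusted p = 0.0177). PUMA was thus above its untreated level in the libraries labelled long washout of PC9 and H1975 and below it in HCC2935. Calls were lost by leaving out 1 library for HCC827 DTPs against DMSO (DMSO replicates 2 or 3, DTP replicates 1 or 2, adjusted p 0.0542 to 0.103) and against acute treatment (acute replicate 3 or DTP replicate 3, adjusted p 0.0504 to 0.0672). The same held for H1975 DTPs against acute treatment (acute replicates 2 or 3, DTP replicates 1 or 2, adjusted p 0.112 to 0.172) and for the HCC2935 long washout (DMSO replicate 3, long washout replicates 1 or 3, adjusted p 0.0568 to 0.0827). The HCC827 long washout was called above DMSO without DMSO replicate 1 (adjusted p = 0.0344). With only the 6 libraries of the arms compared, the calls for HCC827 DTPs against DMSO and for H1975 DTPs against acute treatment were lost as well (adjusted p = 0.0729 and 0.0707).

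BID, which caspase 8 cleaves to link death receptors to mitochondria, was not called after acute osimertinib or in DTPs in any line. Its libraries in PC9 held 52.98, 48.3 and 44 CPM in DMSO, 50.7, 44.1 and 56.2 after acute treatment and 49.6, 47.9 and 50.4 in DTPs. The long washout gave 69.1, 66.5 and 56.3 CPM, higher than DTPs by 0.39 ± 0.11 (adjusted p = 0.0112) and than DMSO by 0.3978 ± 0.11 (adjusted p = 0.00755), both lost in the fit of all 60 libraries (adjusted p = 0.0527 and 0.0542). Mean levels over the 5 arms ran from 6.32 to 8.58 CPM in HCC827, 15.98 to 23.3 CPM in H1975 and 31.7 to 44.1 CPM in HCC2935. The acute difference in H1975 was -0.28 ± 0.12 (adjusted p = 0.0662) and was called lower without DMSO replicate 2 (adjusted p = 0.0387) and under 3 other settings. HCC2935 DTPs were called above acute treatment without DTP replicate 2 (adjusted p = 0.0137) and in the limma fits to TPM (adjusted p 0.0114 to 0.0115). Those limma fits also called PC9 DTPs above DMSO (adjusted p 0.0440 to 0.0442), and DESeq2 called H1975 DTPs above acute treatment (adjusted p = 0.0404).

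BMF, a sensitiser that the cytoskeletal motor complexes hold in healthy cells, gave the largest acute rise among the 31 tests, in PC9. In PC9 the DMSO libraries held 12.6, 11.99 and 6.31 CPM and the acute libraries 226, 200.1 and 253 CPM, a log2 fold change of 4.43 ± 0.34 (adjusted p = 1.13e-07). In HCC2935 it went from 96.5, 87.6 and 183 to 773, 658 and 759 CPM, 2.595 ± 0.26 (adjusted p = 9.54e-07), and ranked 177 of 14946 genes. HCC827 went from 56.6, 17.2 and 77.9 to 274, 304 and 261 CPM (2.43 ± 0.42, adjusted p = 3.61e-04) and H1975, from the lowest start, from 8.29, 5.24 and 7.03 to 17.9, 14.4 and 20.8 CPM (1.35 ± 0.301, adjusted p = 0.00175). Every acute library lay above every DMSO library of its line, and the size of the rise differed among lines (adjusted p = 5.50e-05). DTPs stood lower than acute treatment in PC9, at 111, 107 and 118 CPM (-1.01 ± 0.29, adjusted p = 0.0149), and in HCC2935, at 338, 382 and 333 CPM (-1.07 ± 0.24, adjusted p = 0.00205). They remained above DMSO by 3.42 ± 0.32 (adjusted p = 7.08e-07) and 1.53 ± 0.25 (adjusted p = 8.06e-05). In HCC827 and H1975 DTPs held 218, 137 and 117 and 16.1, 15.9 and 27.6 CPM, above DMSO by 1.65 ± 0.41 (adjusted p = 0.00446) and 1.497 ± 0.302 (adjusted p = 8.23e-04) and not called against acute treatment (adjusted p = 0.1499 and 0.728). Acute treatment and DTPs thus both sat above DMSO in every line. The PC9 short washout gave 76.8, 58.1 and 67.2 CPM and the long washout 32.6, 28.5 and 72.9 CPM. The latter differed from DTPs by a log2 fold change of -1.31 ± 0.29 (adjusted p = 0.00431) and from DMSO by 2.11 ± 0.31 (adjusted p = 1.36e-04). Replicate 3 was the highest of those long washout libraries. In HCC2935 the long washout brought BMF to 218, 134 and 109.8 CPM, below DTPs (-1.18 ± 0.24, adjusted p = 0.00559). It was not called against DMSO (0.35 ± 0.24, adjusted p = 0.2596) but was called higher without DMSO replicate 3, the highest of its group (adjusted p = 0.00715). In H1975 the libraries labelled short washout held 4.33, 6.09 and 10.5 CPM, with a mean of 6.97 CPM against 6.85 CPM in DMSO. Those labelled long washout held 23.4, 17.7 and 24.5 CPM, in the range of DTPs. The long washout libraries were 1.63 ± 0.30 higher than the short washout libraries (adjusted p = 0.0139), the only member called in that comparison, where 3.52% of all genes were. The short washout difference from DTPs in H1975, -1.49 ± 0.302 (adjusted p = 0.0656), was called without DTP replicate 2 or short washout replicate 3 (adjusted p 0.0148 to 0.0406). It was called also by DESeq2, in the fit of all 60 libraries and with the replicate block, where it was -1.499 with an adjusted p of 0.0309 (over the 3 settings, adjusted p 2.26e-04 to 0.0466). Same-numbered DTP and short washout libraries of H1975 deviated together. The fall from acute treatment to DTPs in PC9 was not called in the limma fits to TPM (adjusted p 0.0622 to 0.08404).

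HRK (harakiri), a sensitiser best known from dying neurons, gave the largest rise in DTPs among the 31 tests, in HCC827. In HCC827 the libraries held 0.6201, 0.143 and 0.586 CPM in DMSO, 1.12, 1.095 and 1.37 after acute osimertinib and 11.3, 5.71 and 6.43 in DTPs, with no overlap among the 3 groups. The log2 fold change was 1.37 ± 0.44 (adjusted p = 0.0246) after acute treatment, 4.11 ± 0.44 (adjusted p = 6.27e-06) in DTPs against DMSO and 2.75 ± 0.397 (adjusted p = 1.99e-04) in DTPs against acute treatment. PC9 showed the same order, from 5.301, 3.903 and 3.501 CPM through 19.4, 30.7 and 22.1 to 37.3, 35.2 and 44.3 CPM. The log2 fold changes there were 2.49 ± 0.22 (adjusted p = 2.76e-07) after acute treatment, 3.18 ± 0.22 (adjusted p = 1.14e-07) in DTPs and 0.69 ± 0.197 (adjusted p = 0.0142) between the latter arms. In H1975 HRK went from 1.38, 3.77 and 2.69 to 13.9, 9.89 and 8.31 CPM (2.03 ± 0.32, adjusted p = 1.28e-04) and stayed at 12.7, 9.42 and 11.5 CPM in DTPs (2.07 ± 0.32, adjusted p = 1.10e-04). The gap between acute treatment and DTPs thus differed among lines, as its test showed (adjusted p = 1.49e-04, which includes HCC2935). HCC2935 barely expressed HRK, with 0, 0 and 0 counts in DMSO, 2, 1 and 0 after acute treatment, 8, 11 and 7 in DTPs, 3, 3 and 1 after the short washout and 2, 0 and 14 after the long washout. No test was made there in the fit of that line. The highest counts of that line were those of DTPs, apart from long washout replicate 3. After the long washout HRK stood at 13.99, 14.9 and 21.96 CPM in PC9, below DTPs (-1.18 ± 0.2, adjusted p = 0.00122), and at 6.21, 6.34 and 4.34 CPM in HCC827 and 10.97, 8.399 and 9.85 CPM in H1975. In these 3 lines it was above DMSO by 1.999 ± 0.21 (adjusted p = 1.21e-05), 3.64 ± 0.44 (adjusted p = 1.99e-05) and 1.88 ± 0.32 (adjusted p = 2.18e-04). The acute rise in HCC827 rested on about 1 CPM and was lost without DMSO replicate 2 or acute replicate 3 (adjusted p 0.0634 to 0.0852) and with a pseudocount of 1 TPM or only the 6 libraries compared (adjusted p = 0.273 and 0.0742). The rise from acute treatment to DTPs in PC9 was lost without acute replicates 1 or 3 or DTP replicate 3 (adjusted p 0.0532 to 0.0681) and in the fit of all 60 libraries (adjusted p = 0.117).

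BIK, a sensitiser of the endoplasmic reticulum membrane, moved opposite ways in PC9 after acute treatment and in DTPs. In PC9 it rose from 4.36, 4.89 and 4.54 CPM in DMSO to 7.701, 6.302 and 10.3 CPM after acute osimertinib (0.79 ± 0.21, adjusted p = 0.0037). In DTPs it was at 3.85, 2.96 and 2.52 CPM, below DMSO (-0.59 ± 0.21, adjusted p = 0.0232) and below acute treatment (-1.38 ± 0.21, adjusted p = 2.28e-04). HCC827 was not called after acute treatment (0.23 ± 0.21, adjusted p = 0.428) and fell in DTPs from 18.4, 16.4 and 11.9 to 8.39, 11.03 and 7.59 CPM (-0.78 ± 0.21, adjusted p = 0.00847). H1975 had the deepest fall, from 2.48, 0.643 and 2.51 CPM in DMSO and 0.686, 1.97 and 1.57 CPM after acute treatment to 0.331, 0.271 and 0.288 CPM in DTPs (-2.69 ± 0.52, adjusted p = 5.70e-04). DTPs of that line stood below every DMSO and acute library. Compared with acute treatment, DTPs were lower in HCC827 (-1.001 ± 0.21, adjusted p = 0.00296) and in H1975 (-2.26 ± 0.52, adjusted p = 0.00381). HCC2935 was not called at any step, with 5.47, 3.83 and 5.68 CPM in DMSO and 5.096, 3.599 and 4.57 CPM in DTPs. BIK was still below DMSO after the long washout in H1975, at 0.275, 0.348 and 0.235 CPM, in PC9, at 2.52, 2.98 and 3.43 CPM, and in HCC827, at 10.7, 9.78 and 11.04 CPM. The log2 fold changes against DMSO were -2.74 ± 0.52 (adjusted p = 4.89e-04), -0.63 ± 0.21 (adjusted p = 0.0261) and -0.56 ± 0.21 (adjusted p = 0.0458). The test of a difference among the lines was not called for the acute response of BIK (adjusted p = 0.0873), whereas the DTP response differed among lines (adjusted p = 4.39e-05). In H1975 and HCC827 the fall of BIK went with lower CDH1 and EPCAM levels, given above. In PC9, where BIK also fell, mean CDH1 was 328 CPM in DMSO and 711 CPM in DTPs and mean EPCAM 565 and 256 CPM. In HCC2935, where BIK was not called, they were 1449 and 1372 CPM and 600.4 and 403 CPM. Of the 5 epithelial markers, DTPs had 3 called lower in H1975, 5 in HCC827, 4 in HCC2935 and 2 in PC9, where 2 others were higher. The part of these markers in the change of BIK was not tested. Calls were lost for PC9 DTPs without DMSO replicate 2 or DTP replicates 2 or 3 (adjusted p 0.0604 to 0.0854) and under 4 other settings (adjusted p 0.0652 to 0.151). They were lost for the PC9 long washout without DMSO replicates 2 or 3 or long washout replicate 1 (adjusted p 0.0563 to 0.0923) and under 5 (adjusted p 0.0638 to 0.0878). The call for the HCC827 long washout was lost without DMSO replicates 1 or 2 or any long washout replicate (adjusted p 0.07101 to 0.173) and under 6, the replicate block among them (adjusted p 0.0511 to 0.0845).

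BAD, a sensitiser whose protein is switched off by survival kinases through phosphorylation, had the smallest changes that were called. In PC9 the libraries held 45.7, 40.8 and 41.7 CPM in DMSO, 53.5, 54.2 and 48.1 after acute osimertinib and 52.1, 51.1 and 54.8 in DTPs, 0.26 ± 0.082 (adjusted p = 0.0117) and 0.28 ± 0.082 (adjusted p = 0.00683) above DMSO. In HCC827 they held 22.2, 17.8 and 18.04, 30.04, 27.2 and 24.1 and 23.2, 28.1 and 25.4 CPM, with 0.46 ± 0.13 (adjusted p = 0.0122) and 0.42 ± 0.13 (adjusted p = 0.0176). H1975 and HCC2935 were not called in either comparison, with acute differences of 0.04005 ± 0.11 and -0.17 ± 0.12, and the acute response differed among lines (adjusted p = 0.00178). BAD was above DMSO after the long washout in PC9 (0.46 ± 0.082, adjusted p = 5.03e-04), HCC827 (0.51 ± 0.13, adjusted p = 0.006204) and H1975 (0.29 ± 0.11, adjusted p = 0.0352). GPR137, on the opposite strand over part of the BAD exons and named after its values were seen, was likewise higher after acute treatment in PC9 (0.24, adjusted p = 0.0356), HCC827 (0.59, adjusted p = 0.0249) and H1975 (0.39, adjusted p = 0.0198). The share of its reads in the BAD counts was not tested. Calls were lost for PC9 acute treatment without DMSO replicate 2 or acute replicate 2 (adjusted p 0.05101 to 0.0551) and for HCC827 acute treatment without DMSO replicate 2 or acute replicate 1 (adjusted p 0.0506 to 0.0621). They were lost also for HCC827 DTPs without DMSO or DTP replicates 2 or 3 (adjusted p 0.0514 to 0.0761) or with only the 6 libraries compared (adjusted p = 0.0681). The call for the H1975 long washout was lost without DMSO replicates 1 or 3 or long washout replicates 2 or 3 (adjusted p 0.0777 to 0.205) and under 6 other settings (adjusted p 0.0533 to 0.178). Calls were gained for H1975 DTPs against DMSO without DMSO replicate 2 (adjusted p = 0.0186), HCC2935 acute treatment, lower, without DMSO replicate 3 (adjusted p = 0.0496) and the PC9 long washout against DTPs without its replicate 3 (adjusted p = 0.0108).

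NOXA (PMAIP1), a sensitiser that neutralises MCL1, was the member that acute osimertinib lowered. In HCC2935 it fell from 34.8, 33.8 and 46.7 CPM in DMSO to 19.02, 17 and 19.8 CPM after acute treatment (-1.03 ± 0.18, adjusted p = 2.54e-04). It stood at 18.8, 24.3 and 17.2 CPM in DTPs (-0.92 ± 0.18, adjusted p = 4.67e-04) and 26.02, 22.7 and 15.8 CPM after the long washout (-0.81 ± 0.18, adjusted p = 0.00183). All 12 treated and washout libraries of HCC2935 lay below its 3 DMSO libraries. In H1975 DTPs held 34.8, 44.95 and 35.5 CPM against 51.7, 47.7 and 48.6 in DMSO (-0.39 ± 0.14, adjusted p = 0.03296), and the long washout was likewise below DMSO (-0.42 ± 0.14, adjusted p = 0.0242). In PC9 DTPs it was higher, at 10.2, 12.9 and 13.8 CPM against 8.39, 7.69 and 9.95 (0.48 ± 0.18, adjusted p = 0.0258), and it fell again after the long washout (-0.51 ± 0.18, adjusted p = 0.0386). NOXA thus went down in 2 lines and up in another, and both the acute and the DTP response differed among lines (adjusted p = 2.31e-05 and 4.04e-05). HCC827 was not called in any comparison, with 50.6, 60.9 and 48.2 CPM in DMSO and 46.9, 55.8 and 41.98 CPM in DTPs. Leaving out 1 library ended the calls for PC9 DTPs against DMSO (DMSO replicates 1 or 2, DTP replicates 2 or 3, adjusted p 0.0689 to 0.116) and for the PC9 long washout against DTPs (long washout replicates 1 or 2, DTP replicates 2 or 3, adjusted p 0.105 to 0.158). The same held for H1975 DTPs against DMSO (DMSO or DTP replicates 1 or 3, adjusted p 0.0568 to 0.125) and for the H1975 long washout against DMSO (DMSO replicate 1, long washout replicates 1 or 2, adjusted p 0.0667 to 0.0953). H1975 was called lower after acute treatment without acute replicate 2 (adjusted p = 0.0286) and HCC827 DTPs lower than acute treatment without DTP replicate 2 (adjusted p = 0.0261). The calls for PC9 with only the 6 libraries compared (long washout against DTPs, adjusted p = 0.123) and for H1975 DTPs in the fit of all 60 libraries (adjusted p = 0.0522) were lost too.

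The other genes of the pathway were counted as gene-by-line tests over the 4 lines. Of 18 tests of the prosurvival genes BCL2, BCL2L1, BCL2L2, MCL1 and BCL2A1, acute osimertinib gave 1 higher and 4 lower and DTPs 4 higher and 4 lower, and in DTPs against acute treatment 6 were higher and none lower. BCL2A1, which had the largest acute change of that list, fell in HCC2935 from a mean of 7.17 to 1.17 CPM (-2.59 ± 0.53) and BCL2 in PC9 from 11.3 to 3.27 CPM (-1.803 ± 0.18). Of 12 tests of the pore-forming effectors BAX, BAK1 and BOK, 1 was higher and 5 lower after acute treatment, with BAX lower in PC9 (-0.45), HCC827 (-0.37) and H1975 (-0.39) and BAK1 lower in PC9 (-0.78) and H1975 (-0.41). BOK, named after its values were seen, rose in HCC827 from 25.4 CPM to 127 CPM in DTPs (2.33 ± 0.14). The 16 tests of CYCS, APAF1, CASP9 and DIABLO, which act downstream of cytochrome c release, gave 5 higher and 5 lower after acute treatment. CYCS, which encodes cytochrome c, fell in all 4 lines, by 2.22 on the log2 scale in PC9, and APAF1, its partner in the apoptosome, rose in PC9 (0.95), H1975 (0.66) and HCC2935 (0.31). Among factors known to switch BH3-only genes on (FOXO1, FOXO3, FOXO4, DDIT3, ATF4, E2F1 and TP73) 15 of 28 tests were higher and 5 lower after acute treatment, and 11 higher and 5 lower in DTPs. FOXO4 rose in all 4 lines (2.51, 1.74, 1.83 and 3.37 in PC9, HCC827, H1975 and HCC2935), and E2F1, a cell cycle factor, fell in all 4 (-1.75, -2.64, -2.03 and -2.88). The ERK output genes, 19 of 24 lower after acute treatment, were lower in 16 of 24 tests and higher in 1 in DTPs, and 11 were higher in DTPs than after acute treatment. The share called in each list stands against the same backgrounds of 39% to 66.2% of all genes in the acute comparison. For DTPs against DMSO the background was 43.4% to 69.2%. For DTPs against acute treatment it was 29.4% to 44.7%, with 16.1% to 22.8% called higher.

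**Figure D4:**
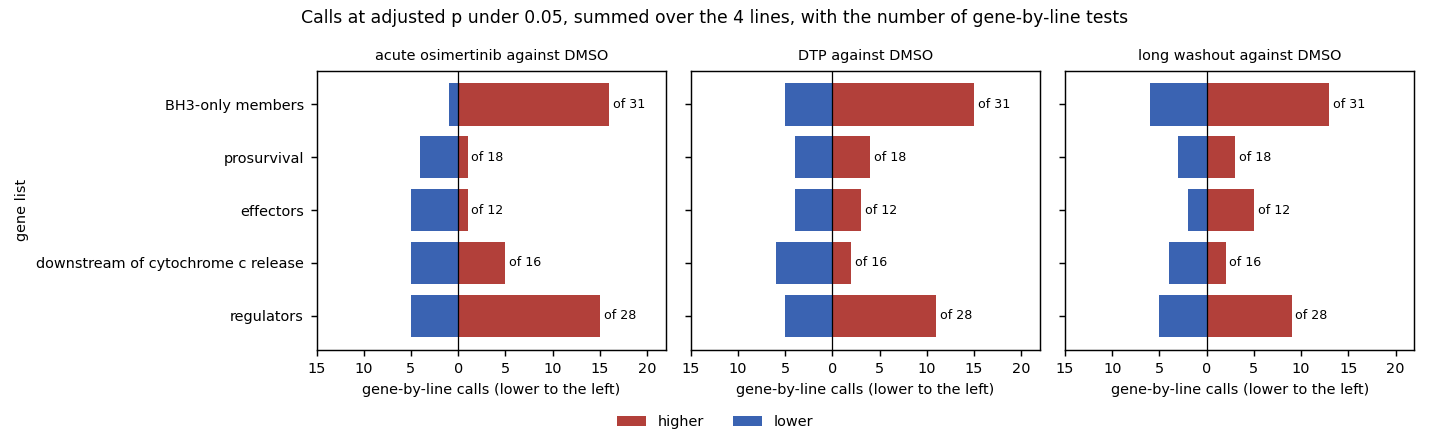
Number of gene-by-line tests called higher (bars to the right of 0) and lower (bars to the left of 0) in each pathway list, summed over the 4 lines, with the number tested beside each bar, for acute osimertinib, DTPs and the long washout, each against DMSO; regulators are the factors known to switch BH3-only genes on. The BH3-only genes have 16 higher and 1 lower after acute treatment, 15 and 5 in DTPs and 13 and 6 after the long washout.

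The genes whose pattern over the arms was most like each member's were ranked by Pearson r over 20 group means (log2 of CPM + 1, each line centred on its own mean) among 13804 other genes; these points share lines and controls, so r is a description. BMF and PUMA had the closest matches, CALCOCO1 and HDAC5 (r = 0.96 each) and RETREG3 (0.958) for BMF, and TMEM44 (0.96), ZNF33B and WDR6 (0.953 each) for PUMA. For BIM they were CARD9 (0.923), ZNF493 (0.921) and ZNF610 (0.917), and for HRK CAMK2D (0.958), FBLN1 (0.942) and CITED2 (0.935). BIK was closest to KRTCAP3 (0.911), PUDP (0.891) and ANGEL2 (0.886), and NOXA to the immediate early gene IER2 (0.894), MAP3K9 (0.824) and USP6NL (0.803). BID was closest to KIF1C (0.838) and BAD to PRDM11 (0.849). Between members, BMF and PUMA (0.832), BIM and BMF (0.799) and BIM and PUMA (0.754) had the highest r, while BIK ran against BID (-0.622) and HRK (-0.508).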

How the data were processed

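RNA from 60 libraries (4 lines, 5 arms, 3 biological replicates) had been sequenced as TruSeq mRNA libraries on a HiSeq4000 with paired 150 bp reads over 9 lanes. Per the labels, the submitters' processing notes name HISAT2 2.1.0, Salmon 0.8.2 and the build hg38. Their roles, the annotation and the strand setting are not given in the sources used here. Both tables are per gene symbol. In the first the authors deposited estimated counts, which are not normalized. The second holds TPM that the authors gave as log2(TPM + 0.01), the pseudocount being read from the lowest value.

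For testing, these counts were made whole by rounding and fitted with edgeR 4.0.16 (TMM, filterByExpr, glmQLFit and glmQLFTest, cell means of the 5 arms) in R 4.3.3, line by line, for 6 comparisons in each of 4 lines. P-values were adjusted by Benjamini-Hochberg over the 14866 (PC9), 14665 (HCC827), 15379 (H1975) and 14946 (HCC2935) genes tested, and 0.05 was the threshold. Differences among lines were tested with 3 degrees of freedom in a fit of all 60 libraries (16583 genes). Printed CPM were TMM-normalised over the 60 libraries, whereas fold changes come from the fit of each line. The scripts were tested on simulated data. Alternatives used other size factors and filters, DESeq2 1.42.0, limma 3.58.1 on the log2 TPM, a replicate block, fits of fewer or more libraries, and fits that dropped 1 library at a time. Leaving out the H1975 libraries was chosen after seeing the data.

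The members and gene lists were chosen with earlier results of these data known. All members are named. Some genes of the lists are not reported here. Other pathway genes given with values had the largest or next largest mean absolute acute change of their list or bear on a result, except BOK and GPR137, which were chosen after their values were seen. No library was a duplicate: the squared differences between replicates of a group averaged 8.97 to 138 times the variance from counting alone. Over each line, same-numbered replicates did not deviate together (median r of their deviations from -0.037 to 0.029). In 3 of the 24 comparisons every same-numbered pair had an r over 0.1, the short washout against DTPs in HCC827 (0.402 to 0.694) and H1975 (0.249 to 0.599) and acute treatment against DMSO in HCC2935 (0.126 to 0.357), and there the numbers were taken as pairs and the fit with a replicate block is given where it changes a call. Windows before RefSeq starts and GENCODE 29 gene positions, both on GRCh38, were used for sequence and location only.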

Additional observations from a re-analysis of the deposited data

Results flagged for a closer look

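The response of several BH3-only genes differed among the 4 cell lines by edgeR's test of any difference among lines (60 libraries, Benjamini-Hochberg adjusted p over 16583 genes). For acute osimertinib against DMSO, the adjusted p was 0.00106 for BIM (log2 fold change from -0.0086 in H1975 to 1.13 in HCC2935), 5.50e-05 for BMF (1.35 in H1975 to 4.43 in PC9), 2.31e-05 for NOXA (-1.03 in HCC2935 to 0.28 in PC9) and 0.00178 for BAD (-0.17 in HCC2935 to 0.46 in HCC827).

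For DTPs against DMSO it was 1.58e-07 for PUMA (-0.27 in HCC2935 to 2.15 in PC9), 1.48e-05 for BIM (-0.017 in HCC827 to 1.36 in PC9), 4.04e-05 for NOXA (-0.92 in HCC2935 to 0.48 in PC9), 4.39e-05 for BIK (-2.69 in H1975 to -0.17 in HCC2935), 0.00179 for BMF (1.497 in H1975 to 3.42 in PC9), 0.00558 for HRK (2.07 in H1975 to 4.11 in HCC827) and 0.03603 for BAD (-0.066 in HCC2935 to 0.42 in HCC827). For DTPs against acute osimertinib it was 4.40e-05 for PUMA (-1.55 in HCC2935 to 0.27 in PC9), 1.49e-04 for HRK (0.046 in H1975 to 2.75 in HCC827), 0.00357 for BIM (-0.55 in HCC2935 to 0.4005 in PC9) and 0.00653 for BIK (-2.26 in H1975 to -0.45 in HCC2935).

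For the long washout against DTPs it was 0.0246 for PUMA (-0.87 in PC9 to 0.39 in H1975). For the long washout against DMSO it was 1.06e-06 for PUMA (-0.53 in HCC2935 to 1.499 in H1975), 7.22e-05 for BIK (-2.74 in H1975 to -0.35 in HCC2935), 0.00522 for NOXA (-0.81 in HCC2935 to 0.09 in HCC827), 0.0145 for BMF (0.35 in HCC2935 to 2.11 in PC9), 0.0147 for HRK (1.88 in H1975 to 3.64 in HCC827) and 0.03801 for BIM (-0.11 in HCC827 to 0.66 in PC9). The long washout differed in length among the lines, so line and washout length cannot be told apart there. The HRK tests include HCC2935, whose DMSO libraries hold 0 counts, so the ranges given for HRK cover the other lines. Groups of 3 were too small to test single libraries as outliers.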

How the results depend on the processing

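Over 2964 member values recomputed under the alternatives, 2789 stayed on their side of the threshold, 95 lost a call and 80 gained one, and no called value changed sign. Of 74 calls, 52 held under every alternative run. The count for the short washout against DTPs moved from 0 to 1 in the fit of all 60 libraries, with at least 10 counts in every library, with limma on log2(TPM + 1) and with the replicate block, to 4 with DESeq2 and to 6 with only the 6 libraries of both arms. The share of all genes called under these settings was not counted. The count of members that differed among lines in the long washout against DTPs moved from 1 to 2 with RLE size factors or the replicate block and to 0 without the H1975 libraries. With 1 library left out, the counts ran from 15 to 18 (acute against DMSO), 18 to 21 (DTPs against DMSO), 10 to 12 (DTPs against acute), 0 to 1 (short washout against DTPs), 6 to 8 (long washout against DTPs) and 17 to 19 (long washout against DMSO). With the replicate block, the counts were 17, 20, 12, 1, 7 and 18 in that order. In the 3 comparisons whose same-numbered replicates all deviated together, the block changed 1 member call, BMF in H1975 short washout. In the others the numbers were not taken as pairs. On log2(TPM + 1) the changes of low genes were compressed, HRK in HCC827 DTPs to 1.54 and BIK in H1975 DTPs to -1.38. The 3 replicates of a group and about 1 CPM of HRK in HCC827 limit what could be called.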
